A study of Homo sapiens with 2 samples.

Results

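Ovarian carcinoma is recognised and followed through a small set of genes, and 10 of them were looked for here on arrays of RUNX2-suppressed SKOV3 cells. They are MUC16, MUC1, WFDC2, MSLN, PAX8, WT1, FOLR1, SLPI, CD24 and KLK6. The members were the array probes whose RefSeq accession belongs to one of these genes. This gave 12 probes of 9 genes, out of 41000 probes and 17240 named genes on the arrays. MUC16, MUC1, MSLN, WT1, FOLR1 and KLK6 had 1 probe each, and WFDC2, PAX8 and SLPI had 2 each. No probe carried a RefSeq accession of CD24, which was not analysed here.

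SKOV3 is an established human ovarian adenocarcinoma cell line. The clone cl-sh3 carries a lentiviral pLKO.1-puro short hairpin RNA against RUNX2, and the mock-transfected control clone carries the same vector with a scramble sequence. Both were selected with puromycin, and each is 1 clone, so a difference between them cannot be told apart from a difference between any 2 clones of the line. RNA of both clones was hybridized together on 2-colour Agilent whole human genome arrays, with cl-sh3 in Cy5 in hybridization 1 and in Cy3 in hybridization 2. Both hybridizations lie on 1 slide and hold the same pair of RNAs, so they count as 1 replicate. There is therefore no test between the clones and no p-value, and both hybridizations' values are printed throughout.

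The marker proteins fall into 4 kinds. MUC16 and MUC1 are membrane mucins of epithelial surfaces. MUC16 carries the CA125 epitope measured in serum, and mesothelin, the product of MSLN, is a surface protein that binds it. WFDC2 encodes the secreted marker HE4, a WAP domain protein, SLPI encodes a secreted protease inhibitor built of WAP domains, and KLK6 encodes a secreted serine protease of the kallikrein family. FOLR1 encodes folate receptor alpha, which is anchored in the cell membrane and imports folate. PAX8 and WT1 encode transcription factors of urogenital development that pathologists stain in serous tumors. RUNX2 itself encodes a transcription factor that binds TGTGGT and related sequences together with its partner CBFB.

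The promoters of MUC1 and KLK6 are shown because MUC1 had the largest ratio of the markers and because KLK6 was the 1 marker gene with a RUNX motif in the promoters given. The sequences are those of RefSeq on GRCh38.p14, read 5′ to 3′ on the gene's strand, from 250 bases before the annotated start to 10 bases after it. MUC1 lies at chr1:155192906-155193165 and KLK6 at chr19:50969582-50969841, both on the minus strand, and capitals mark the motif TGTGGT.
MUC1: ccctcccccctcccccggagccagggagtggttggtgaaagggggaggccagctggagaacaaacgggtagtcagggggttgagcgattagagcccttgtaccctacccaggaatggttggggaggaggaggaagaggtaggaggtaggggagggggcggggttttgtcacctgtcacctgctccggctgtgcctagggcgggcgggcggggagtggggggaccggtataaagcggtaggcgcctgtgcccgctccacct
KLK6: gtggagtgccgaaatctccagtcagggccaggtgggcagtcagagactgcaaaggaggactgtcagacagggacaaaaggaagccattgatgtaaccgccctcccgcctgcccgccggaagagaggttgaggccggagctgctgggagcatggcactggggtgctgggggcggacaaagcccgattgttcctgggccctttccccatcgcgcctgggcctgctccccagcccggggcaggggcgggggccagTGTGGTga
Both strands were searched for TGTGGT and for TGCGGT in windows of 250 bases before to 50 after each start. Promoters were given for 7 of the marker genes, 14 in all. TGTGGT was in 1 of these 14, that of KLK6, at bases 3 to 8 counted from the start, and in 13.1% of all 35116 promoters. TGCGGT was in 0 of the 14 and in 7.29% of all promoters.

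The arrays held 43376 probe spots. The median signal was 451 to 507.5 in Cy3 over a background of 43 to 46, and 684 to 902.5 in Cy5 over a background of 164 to 166.5. A probe was kept when at least 1 clone was well above background, by the scanner software's flag, in both hybridizations, which held for 36065 probes (88.0%). The targeted gene was checked first. One of the RUNX2 probes (accession NM_004348) had log2 ratios of cl-sh3 over control of -2.04 and -1.30, a mean of -1.67 or 3.18-fold lower. However, another RUNX2 probe of the same accession had 0.17 and -0.13, a mean of 0.02. The probe of another RUNX2 transcript had a mean of -0.23. The epithelial identity of both clones was checked with KRT7, KRT8, KRT18, KRT19, EPCAM and CDH1, and all 6 were well above background in both clones. The flag does not show on its own that a gene is expressed, because the leukocyte markers PTPRC, CD3E and CD14 also carried it in both clones.

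No marker gene differed 2-fold between the clones. Of the 12 marker probes, 11 were kept. A probe was counted when its ratio passed 2-fold the same way in both hybridizations. This held upwards for 0 of the 11 and downwards for 0, against 0.122% and 0.394% of all 36060 kept probes with a ratio in both hybridizations. None of their ratios passed 2-fold in either hybridization. Taking the brightest probe of each gene, the mean log2 ratio ran from -0.32 for SLPI to 0.62 for MUC1, with a median of -0.07 over the 9 genes and of 0.01 over all kept probes. For 5 of the 9 genes, MUC16, WFDC2, MSLN, PAX8 and WT1, the mean was within 0.1 of 0. The lowest of these means, that of WFDC2, was higher than 29.5% of kept probes. The highest, that of MUC16, was higher than 55.3%, so means this near 0 were common on the arrays. The ratio was above 0 in both hybridizations for 3 genes and below 0 in both for 2, while 4 changed sign between the hybridizations. Of all 16153 named genes, each by its brightest kept probe, 30.9% were above 0 in both and 28.4% below 0 in both.

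**Figure D1:**
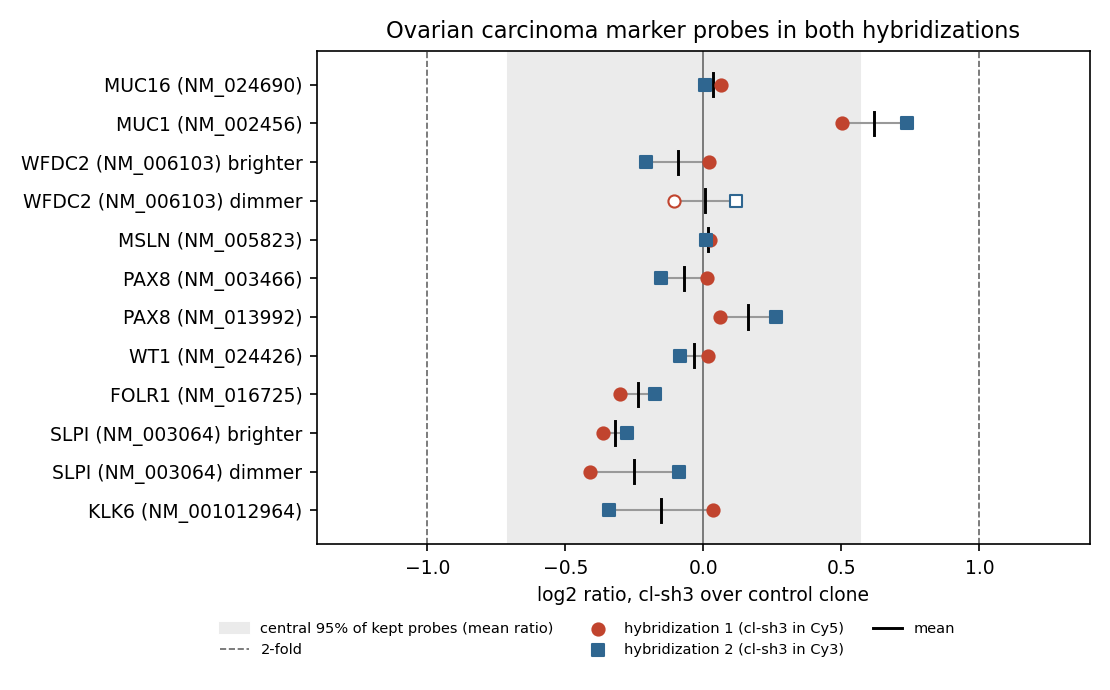
Log2 ratio of cl-sh3 over control (horizontal axis) for each of the 12 marker probes, with hybridization 1 as circles, hybridization 2 as squares and the mean as a black bar. Open symbols mark the WFDC2 probe that was not well above background, the grey band spans the central 95% of the mean ratios of kept probes (-0.71 to 0.57), and MUC1 alone has its mean outside the band while all symbols lie inside the dashed 2-fold lines.

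The technical error was measured between hybridizations and between repeated spots. The 2 hybridizations of a kept probe differed by a median of 0.22 on the log2 scale, and the 95th percentile of this difference was 0.63. Each marker probe was printed once per array, but 256 kept probes were printed 10 times, and their spots had a median SD of 0.12 in the log2 ratio, with 0.29 as the largest. For the 11 kept marker probes the 2 hybridizations differed by 0.02 to 0.38, with a median of 0.17 beside the 0.22 of all kept probes. In 7 of the 11 this difference was larger than the size of the mean ratio, a share not counted over all kept probes. In 4 of the 11 the hybridizations differed in sign. Over all kept probes, 29.8% were above 0 in both hybridizations and 27.3% below 0 in both, and the rest did not agree in sign. The 4 probes whose difference was smaller than the mean were those of MUC1, FOLR1 and MSLN and the brighter probe of SLPI, and the mean of MSLN was 0.02.

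MUC1 was the marker with the largest difference. Its probe (NM_002456) read 2013 in cl-sh3 and 739 in the control clone in hybridization 1, and 1433.5 and 1069.5 in hybridization 2, where Cy5 is the brighter dye and the dyes are exchanged. After normalisation the levels were 10.35 and 10.60 in cl-sh3 and 9.85 and 9.86 in the control, as log2 intensity, so that both values of cl-sh3 lay above both of the control. The log2 ratios were 0.50 and 0.74, with a mean of 0.62 ± 0.17 (SD of the 2 hybridizations) or 1.54-fold higher. This mean was higher than that of 98.0% of kept probes. MUC1 stayed under the 2-fold rule in each hybridization. Levels of the clones did not overlap for 5 of the 11 kept marker probes, against 40.8% of all kept probes, so a lack of overlap was common on these arrays.

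MUC16 and its binding partner MSLN were dim and nearly equal in both clones. The MUC16 probe (NM_024690) read 448.5 in cl-sh3 and 180 in the control in hybridization 1, and 193 and 347 in hybridization 2. Its normalised levels were 7.75 and 7.64 in cl-sh3 and 7.69 and 7.64 in the control, and its log2 ratios were 0.06 and 0.01. The MSLN probe (NM_005823) read 376 and 209.5 in cl-sh3 and 144 and 404.5 in the control, with log2 ratios of 0.02 and 0.01. Levels of the clones overlapped for both genes. All 4 signals of each probe carried the flag for well above background. However, only 2 of the 4 signals of each were brighter than the brightest of the 153 negative control spots in the same dye and hybridization, which read 191 and 200 in Cy3 and 379 and 342.5 in Cy5. With the scanner software's own ratios MUC16 had 0.33 and -0.15, a mean of 0.09, and MSLN 0.23 and 0.06, a mean of 0.14. Without background correction the MSLN mean was -0.04.

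**Figure D2:**
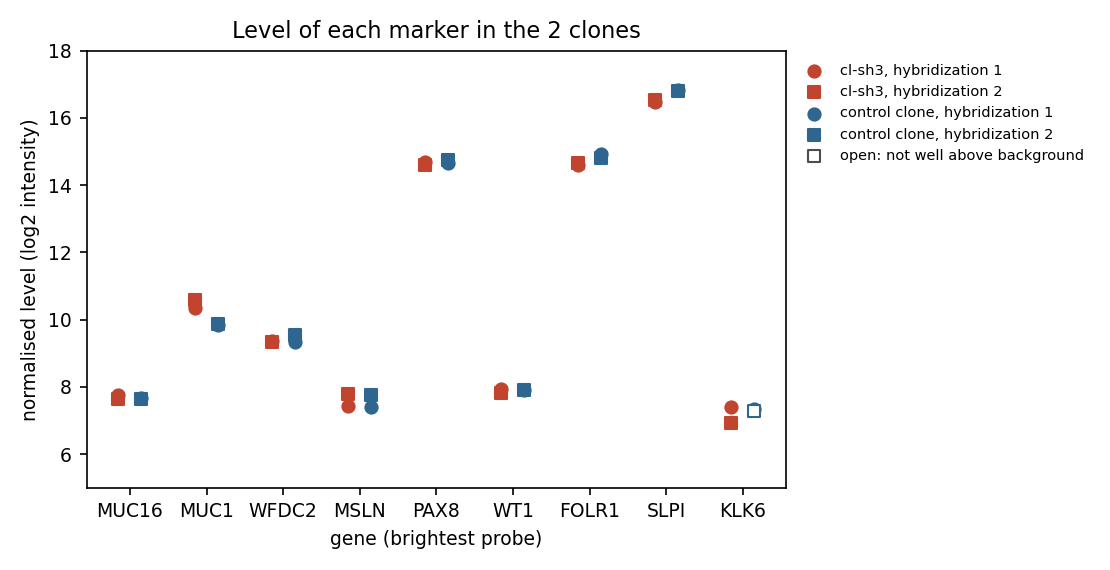
Normalised level (vertical axis, log2 intensity after loess and Aquantile) of the brightest probe of each marker gene in cl-sh3 (red) and the control clone (blue), with circles for hybridization 1 and squares for hybridization 2. Open symbols mark signals not well above background (KLK6 in the control in hybridization 2), and levels can be compared between clones for a gene but not between genes, since probes differ in how brightly they hybridize.

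Among the secreted markers, SLPI was slightly lower in cl-sh3 and WFDC2 was about equal. The brighter SLPI probe (NM_003064) read 140095 and 90155.9 in cl-sh3 and 78230.2 and 118976 in the control. Its normalised levels were 16.47 and 16.54 in cl-sh3 against 16.83 and 16.82 in the control. The log2 ratios were -0.36 and -0.28, a mean of -0.32 ± 0.06 or 1.25-fold lower, and the other SLPI probe had -0.41 and -0.09. Both SLPI probes lay below 0 in both hybridizations with no overlap between the clones. When loess was replaced by centring each array on its median, the brighter probe had 0.10 and -0.29, a mean of -0.10, so that neither its size nor its sign in hybridization 1 was independent of the normalisation.

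The brighter WFDC2 probe (NM_006103) read 1106.5 and 602 in cl-sh3 and 528 and 917 in the control. Its log2 ratios were 0.02 and -0.21, with overlapping levels of 9.37 and 9.34 in cl-sh3 and 9.35 and 9.55 in the control. The dimmer WFDC2 probe of the same accession was not well above background in any of the 4 signals and is given no fold.

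KLK6 was at the limit of detection. Its probe (NM_001012964) read 360 and 124.5 in cl-sh3 and 148 and 299.5 in the control, and 0 of these 4 signals were above the brightest negative control spot. The control clone was well above background in hybridization 1 only. Its log2 ratios of 0.04 and -0.34 differed in sign, and the clones overlapped. Its promoter is the one shown above with the motif.

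The folate receptor FOLR1 was measured brightly and was slightly lower in cl-sh3. Its probe (NM_016725) read 37001.8 and 24093 in cl-sh3 and 23007.2 and 28619.6 in the control. Its normalised levels were 14.62 and 14.65 in cl-sh3 and 14.92 and 14.82 in the control, without overlap. The log2 ratios were -0.30 and -0.18, a mean of -0.24 ± 0.09 or 1.18-fold lower. With median centring they were -0.06 and -0.13, and with the scanner software's ratios -0.43 and 0.02, so that FOLR1 was not lower in hybridization 2 under that setting.

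The lineage factor PAX8 was bright in both clones by its brighter probe, with overlapping levels. The brighter PAX8 probe (NM_003466) read 38373.7 and 23582.4 in cl-sh3 and 19346.5 and 27566.4 in the control. Its log2 ratios were 0.01 and -0.15, and the levels of 14.68 and 14.61 in cl-sh3 overlapped those of 14.67 and 14.77 in the control. The probe of another PAX8 transcript (NM_013992) read 534 and 263 in cl-sh3 and 230.5 and 384 in the control, with log2 ratios of 0.06 and 0.26. This probe was dim, and its levels of 8.11 and 8.14 in cl-sh3 did not overlap those of 8.05 and 7.88 in the control. The signs of the PAX8 probes thus differed, and both stayed under 2-fold.

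WT1 was dim, with signals of 480 and 220 in cl-sh3 and 207 and 427 in the control for its probe (NM_024426). All 4 were above the brightest negative control spot. The log2 ratios were 0.02 and -0.09, and the levels of 7.93 and 7.83 in cl-sh3 overlapped those of 7.91 and 7.91 in the control. By brightness, 5 of the 11 kept marker probes belonged to the dimmest 25% of kept probes (MUC16, MSLN, WT1, KLK6 and the PAX8 transcript NM_013992) and 4 to the brightest 25% (SLPI with both probes, FOLR1 and PAX8).

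Genes related to the markers were compared through 8 lists, each gene by its brightest probe. None of their measured genes passed 2-fold the same way in both hybridizations, which upwards and downwards held for 0.136% and 0.52% of 16153 named genes. Of all named genes, 30.9% were higher and 28.4% lower in cl-sh3 in both hybridizations, with a median mean ratio of 0.01. Of 7 kept mucins other than MUC16 and MUC1, 5 were higher in both and 0 lower in both, with a median of 0.07. Their means ran from -0.05 for MUC20 to 0.12 for MUC6, all below MUC1. A dimmer probe of the membrane mucin MUC4 (A_24_P208825), singled out after its values were seen, had 0.79 and 0.48, a mean of 0.64 beside the 0.62 of MUC1. Of 12 kept kallikreins other than KLK6, 4 were higher in both and 1 lower in both, with a median of 0.05. KLK10, at the top of this list, had log2 ratios of 0.63 and -0.11, and KLK13, at the bottom, 0.10 and -0.23. Of 8 other WAP domain genes, 2 were higher in both and 0 lower in both (median 0.05), from WFDC12 with a mean of -0.05 to PI3, the gene of elafin, with 0.18.

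Of 6 other genes of folate uptake and retention, 2 were higher in both and 1 lower in both, with a median of 0.07. FPGS, which adds glutamates to folate, had 0.13 and 0.18, and GGH, which removes them, had -0.45 and -0.05. Of 12 kept transcription factors of the urogenital tract, 6 were higher in both and 4 lower in both, with a median of 0.09. LHX1 had 0.40 and 0.43 and GATA6 -0.37 and -0.37, the extremes of this list by brightest probe. Of 6 kept mesothelial genes, 1 was higher in both and 3 lower in both (median -0.04), from GPM6A with a mean of -0.26 to UPK3B with 0.15. Of 6 binding partners or targets of the marker proteins, 3 were higher in both and 0 lower in both (median 0.06). Among these, LGALS3, the gene of galectin-3, which binds mucin glycans, had 0.50 and 0.40, and SIGLEC10, a receptor for CD24, had 0.01 and -0.11.

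**Figure D3:**
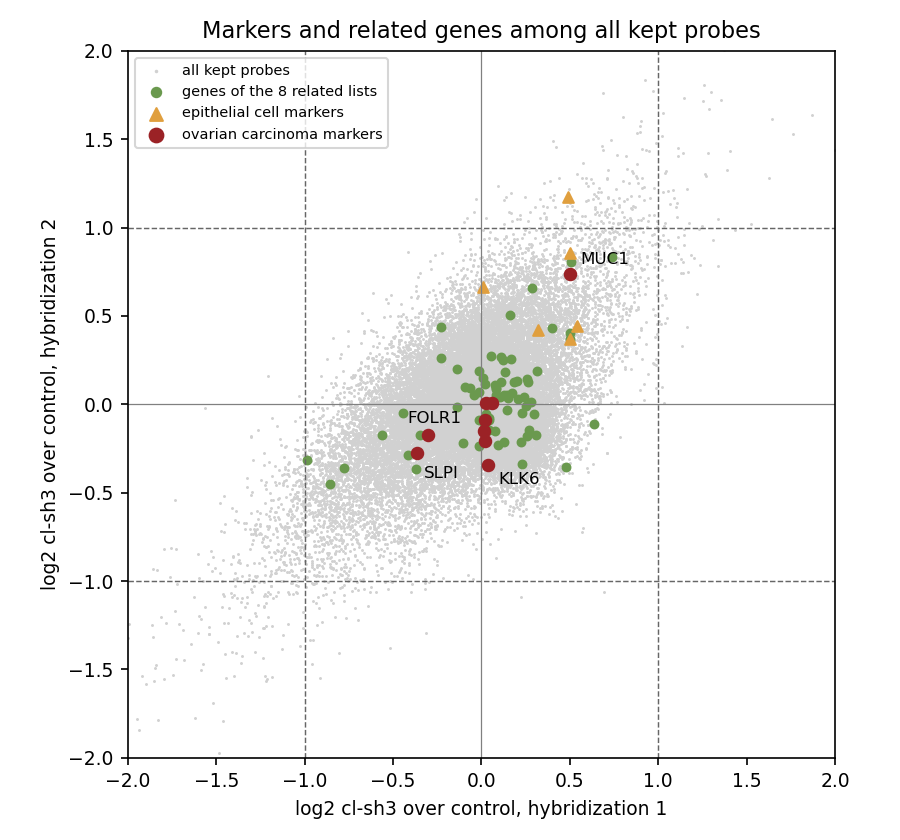
Log2 ratio of cl-sh3 over control in hybridization 1 (horizontal axis) against hybridization 2 (vertical axis) for all kept probes (grey), genes of the 8 related lists (green), epithelial cell markers (orange triangles) and the 9 ovarian carcinoma markers (dark red), with dashed lines at 2-fold. MUC1 lies near the epithelial markers at the upper right and SLPI and FOLR1 in the lower left. The axes end at a log2 ratio of 2 in either direction, and 30 kept probes lie outside them.

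Of 15 further genes used as ovarian carcinoma markers, 10 were higher in both hybridizations and 3 lower in both, with a median of 0.17. CDH6, a cadherin of the surface of these tumors, had 0.74 and 0.83 with its brightest probe and 0.55 and 0.30 with another. ERBB2, a receptor tyrosine kinase, had -0.86 and -0.45 with its brightest probe and 0.26 and 0.18 with another. The 6 epithelial cell markers, which share EPCAM with this list, were all higher in both hybridizations, with a median of 0.46. They ran from CDH1, with 0.01 and 0.66, to KRT7, with 0.49 and 1.17. MUC1, also a gene of epithelial surfaces, had a mean ratio of 0.62 beside a median of 0.46 for these 6 genes. Whether these genes move together could not be tested with 1 pair of RNAs. Of 3 endothelial markers, 1 was higher in both and 0 were lower in both (median 0.08). Of 2 kept fibroblast markers, by brightest probe, 0 were higher in both and 2 lower in both (median -0.22). A dimmer probe of 1 of them, COL1A2, had 0.03 and 0.01. None of these endothelial and fibroblast markers passed 2-fold in both hybridizations.

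**Figure D4:**
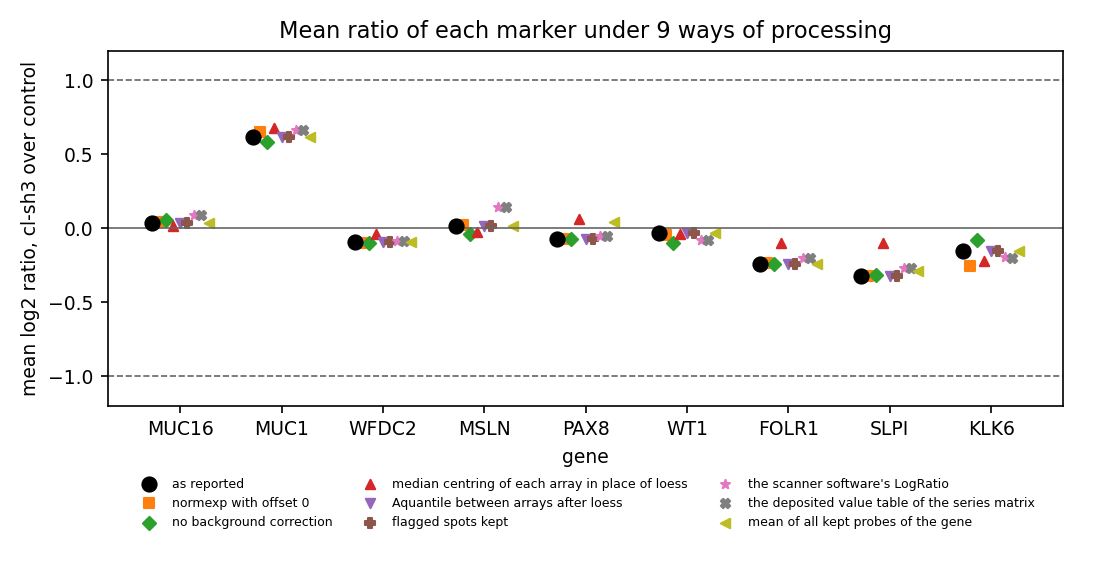
Mean log2 ratio of cl-sh3 over control (vertical axis) for each marker gene (horizontal axis) under 9 ways of processing the arrays, with the reported value as a black circle and dashed lines at 2-fold. MUC1 stays between 0.58 and 0.68 and all other markers between -0.32 and 0.14.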

How the data were processed

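The members and gene lists were chosen with earlier results of these data known. The authors scanned the arrays, and the deposited intensity of each spot and its local background was extracted by Feature Extraction (10.5.1.1 per the file headers, 8.5.1.1 per the labels) on a design annotated on hg18. The authors also deposited log10 ratios (Cy5 over Cy3) from that software and a value table that equals them to within 0.00500. Other deposited columns hold flags of the software, used here as given. Medians of the log10 ratios in the value table were 0.0108 and 0.00. Columns holding the software's p-values were not used.

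Median pixel signals were background corrected with normexp (offset 50) in limma 3.58.1 (R 4.3.3), control spots were removed, outlier-flagged spots (153 and 144) were dropped, and loess was applied within each array. Repeated spots were averaged per probe, and log2 ratios were expressed as cl-sh3 over control, with the dye of each clone taken from the labels. Levels per clone were taken after Aquantile. A probe was called changed when it passed 2-fold in the same direction in both hybridizations, the study's threshold. Of 18715 RefSeq accessions, 18024 were named through RefSeq (GRCh38.p14), 1 of them, that of RUNX2, through the study's supplement. Genes named were all markers, RUNX2, and the highest and lowest of each related list, with its genes past 2-fold. A gene stands by its brightest kept probe. Tested on simulated data for this comparison (40995 probes), 200 of 200 probes changed by 2 on the log2 scale were recovered and 0 others called. The changed probes were brighter than those of MUC16, MSLN, WT1 and KLK6, and their change lay well past the 2-fold rule. Recovery of smaller changes, or of changes on dim probes, was not tested. The number of arrays limits the precision. Figures and counts used Python 3.11.15. Counts over the leukocyte markers are not reported here.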

Additional observations from a re-analysis of the deposited data

How the results depend on the processing

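The count of marker probes past 2-fold in either direction was 0 under every alternative run: median centring, an offset of 0 in normexp, uncorrected background, Aquantile, flagged spots kept, the scanner software's log ratio, the deposited value table, no filter or a stricter filter on dim probes, the mean of both hybridizations in the rule, and each hybridization alone. For Aquantile, the stricter filter, the mean rule and each hybridization alone, this 0 followed from the ratios already given and adds no support. Over all kept probes, the counts of 44 higher and 142 lower moved more. Median centring gave 77 higher and 124 lower (61.7% lower, against 76.3%), the software's log ratio 103 and 253, the deposited values 103 and 251, and the mean of both hybridizations 93 and 250. With 1 hybridization alone the counts ran from 88 to 219 higher and from 196 to 506 lower, and the balance turned: hybridization 1 gave 88 higher and 506 lower (85.2% lower), hybridization 2 gave 219 and 196 (47.2%). Of the 9 marker genes, 7 kept the sign of their mean ratio under all 8 alternatives on both hybridizations. These 8 are not independent checks, since Aquantile leaves the ratios unchanged and the deposited values repeat the software's log ratio. Averaging all kept probes of a gene alters only PAX8 and SLPI among the markers. MUC16 (main mean 0.03) ran from 0.01 to 0.09, MSLN (main mean 0.02) ran from -0.04 to 0.14 and PAX8 (main mean -0.07) from -0.07 to 0.07. FOLR1 and SLPI moved furthest with median centring, to -0.10 each. KLK6 ran from -0.25 to -0.08. With hybridization 1 alone KLK6 was 0.04, WFDC2 0.02, PAX8 0.01 and WT1 0.02, against means below 0. The RUNX2 mean was -0.63 when all its kept probes were averaged. The cause of these differences was not tested. No paired analysis was possible because both hybridizations hold the same pair of RNAs and no test was run. Low signal limits MUC16, MSLN, WT1 and KLK6, whose signals lie near those of the brightest negative control spots.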

Other observations

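Probes of some related genes disagreed, and these were chosen after their values were seen. MUC4, a membrane mucin like MUC1 and MUC16, had 4 probes of 1 accession. Beside the probe A_24_P208825, with a mean of 0.64, means of the other MUC4 probes ran from 0.03 to 0.10. SOX17, a transcription factor expressed with PAX8 in serous tumors, had log2 ratios of -0.56 and -0.17 with its brighter probe and of 0.48 and 0.45 with the dimmer one. MECOM, of the same list of urogenital transcription factors, had 0.08 and 0.08 with its brightest probe. A dimmer MECOM probe of the same accession had -0.93 and -0.47. None of these passed 2-fold.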
